A study of Mus musculus with 6 samples.

Results

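Potassium, sodium and pacemaker channels were examined in hypoxic neonatal mouse cardiomyocytes (NMCMs) given β-sitosterol (β-SITO), a plant sterol, or its vehicle. The members were the protein-coding genes of the deposited count table whose symbol begins with Kcn and a further letter, or begins with Hcn for the pacemaker channels, or names a voltage-gated sodium channel pore subunit or beta subunit. The rule found 112 genes among the 57010 of the table, without using any measured value. Of these, 57 had at least 10 counts in 3 or more libraries, and 56 entered the test across all genes. Kcnh3 was the exception, with 1, 4 and 2 counts in the vehicle libraries and 13, 12 and 10 in the β-SITO libraries, and it was dropped by edgeR's filter on low counts.

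The data were 6 bulk RNA-seq libraries, 3 labelled HO + Vehicle, named V1 to V3 here, and 3 labelled HO + β-SITO, named T4 to T6, where HO stands for hypoxia. All libraries came from primary cardiomyocytes of newborn C57BL/6 mice, prepared by enzymatic digestion of hearts and differential adhesion, and all were kept under hypoxia, so that β-SITO was the only labelled difference. No normoxic library was used here, and the dose and exposure time of these libraries are not given in the sources used here. The labels do not say whether the libraries were separate cultures, so the p-values measure only the spread between these samples, which may be technical. Names of the β-SITO libraries carry a suffix that the vehicle libraries lack, and whether the groups were prepared separately cannot be told apart from an effect of β-SITO.

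The libraries held between 16694734 and 18460522 counts, and 3 counts of a gene came to between 0.154 and 0.189 CPM, a count relative to the TMM-adjusted library size. Replicates differed by more than sampling noise in every pair, and none was counted as 1 with another. All 17 cardiomyocyte markers of a fixed list were detected, with a summed level of 7505 to 8638 CPM in the vehicle group. Library T4 stood apart from T5 and T6 on these markers, with 6545 CPM against 11041 and 11176 CPM. Of the 17 markers, 15 were at least 1.5-fold lower in T4 than the mean of T5 and T6. The cultures also held fibroblast RNA. Its 9 markers summed to 29935 to 31206 CPM in the vehicle group and 44584 to 45674 CPM in the β-SITO group. Col1a1, Col1a2 and Col3a1 held most of that sum, and none of the 9 markers was called. Over the 9 the log2 fold changes ran from -0.52 (Dcn) to 0.97 (Lum). For the named genes that were low in T4, the fold change without it is also given.

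The heartbeat is shaped by ion channels that open in turn. The voltage-gated sodium channel, a pore subunit with small beta subunits, carries the upstroke of the action potential. Voltage-gated potassium channels of the Kv, KCNQ and ERG families repolarise the cell, inward rectifiers and two-pore-domain (K2P) channels hold the resting potential, and HCN channels carry the pacemaker current of spontaneously beating cells. Accessory proteins of the KChIP, KCNE and Kvβ groups set where and how fast the potassium channels open. Many of the same genes also serve neurons, endothelium, pericytes, macrophages and fibroblasts.

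More channel genes were higher than lower with β-SITO. A gene was called at an adjusted p under 0.05 in edgeR's quasi-likelihood test and a change of more than 2-fold. By that rule 26 of the 56 tested channel genes (46.4%) were higher with β-SITO, against 12.8% of all 14799 genes tested. Lower were 5 (8.93%), against 10.1% of all genes. Of these calls, 7 higher and 1 lower were of genes that met the minimum of 10 counts through 1 group only. The filter favoured a call for those genes, so the 26 and the 46.4% are not free of it. The remaining 25 were not called, and 14 of these passed the adjusted p with less than a 2-fold change. By the adjusted p alone 36 were higher and 9 lower, where 33.0% and 33.8% of all genes were. The 3 β-SITO values lay above the 3 vehicle values for 33 channel genes (34.8% of all genes) and below them for 10 (35.8% of all genes), and 13 overlapped. The median log2 fold change was 0.85 over the 56 channel genes and -0.01 over all genes. Counts of calls by family and by list below stand against the same 12.8% higher and 10.1% lower of all genes.

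Several of the called genes were low, and 8 members met the minimum of 10 counts through 1 group only. They were Kcne3, Kcnip2, Kcnh7, Kcnh1, Kcnj10, Kcna2 and Kcna6, which passed through the β-SITO group, and Kcng4, which passed through the vehicle group. For these genes every count in 1 group lay under 10 and every count in the other at 10 or more. The filter thus favoured a difference without fixing its size. These genes stay in the counts of calls above and by family, and no weight is placed on their number. Among the 36 channel genes with a mean of at least 50 counts, a cutoff added after the data were seen, 15 were called higher and 2 lower, where 10.2% and 8.85% of all genes at that level were. The summed level of the 56 tested members was 716, 675 and 678 CPM in V1 to V3 and 893, 1040 and 1005 CPM in T4 to T6.

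**Figure D1:**
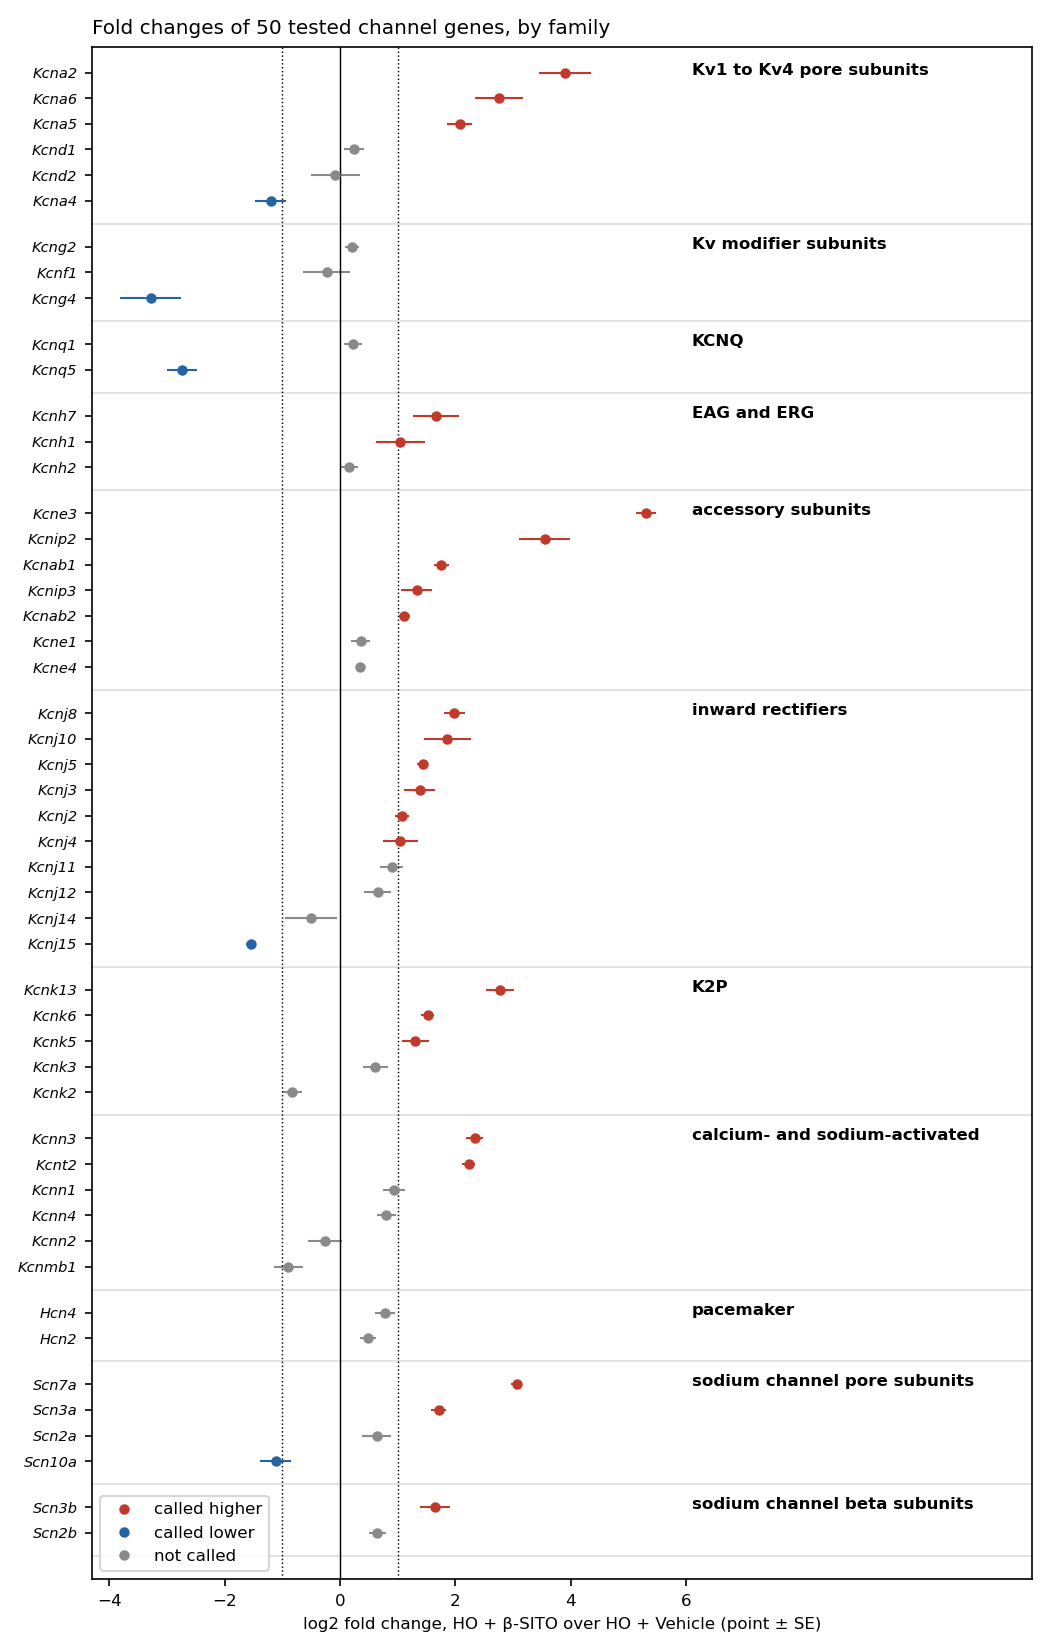
The log2 fold change of HO + β-SITO over HO + Vehicle (point, with its standard error as a bar) is plotted for each of 50 tested channel genes by family, with dotted lines at 2-fold. Those called higher reach 5.31 at Kcne3, those called lower reach -3.28 at Kcng4, and no pacemaker gene was called.

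Promoter windows are shown for 4 of the genes on which the changes in level described below turn, so that the letters at their start sites can be compared. Of the 56 tested channel genes, 39 were in the RefSeq promoter table, each window running from 250 bases before to 50 bases after the start of the gene on the GRCm38.p6 build. The windows of Kcne3, Scn7a and Kcnj2, which were higher with β-SITO, and of Kcnj15, which was lower, are printed 5′ to 3′ on the strand of the gene. Capitals mark matches, on either strand, to an NF-κB-type motif (GGG, any 5 bases, CC) or to the core of the hypoxia-inducible factor element (ACGTG), whose letters read the same on both strands within CACGTG.
Kcne3, first start, chr7:100176420-100176719, plus strand: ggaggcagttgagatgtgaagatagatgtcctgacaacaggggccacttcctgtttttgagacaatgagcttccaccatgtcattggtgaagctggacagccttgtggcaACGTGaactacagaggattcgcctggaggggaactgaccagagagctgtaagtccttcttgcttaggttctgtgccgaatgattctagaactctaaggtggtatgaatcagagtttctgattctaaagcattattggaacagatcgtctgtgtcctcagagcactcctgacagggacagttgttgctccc
Kcne3, second start, chr7:100178433-100178732, plus strand: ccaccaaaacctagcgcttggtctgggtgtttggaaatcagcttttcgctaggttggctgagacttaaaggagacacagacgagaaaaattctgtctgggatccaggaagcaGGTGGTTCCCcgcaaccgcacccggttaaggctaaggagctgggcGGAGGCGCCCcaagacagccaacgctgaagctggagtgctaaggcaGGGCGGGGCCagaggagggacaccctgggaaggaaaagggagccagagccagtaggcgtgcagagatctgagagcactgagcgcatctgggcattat
Scn7a, chr2:66784861-66785160, minus strand: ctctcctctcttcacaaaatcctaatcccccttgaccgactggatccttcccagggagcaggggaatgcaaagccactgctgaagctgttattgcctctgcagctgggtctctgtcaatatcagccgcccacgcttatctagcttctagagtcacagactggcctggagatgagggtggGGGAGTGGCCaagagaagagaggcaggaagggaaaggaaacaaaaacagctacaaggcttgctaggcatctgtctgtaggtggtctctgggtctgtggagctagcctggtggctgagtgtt
Kcnj2, chr11:111065914-111066213, plus strand: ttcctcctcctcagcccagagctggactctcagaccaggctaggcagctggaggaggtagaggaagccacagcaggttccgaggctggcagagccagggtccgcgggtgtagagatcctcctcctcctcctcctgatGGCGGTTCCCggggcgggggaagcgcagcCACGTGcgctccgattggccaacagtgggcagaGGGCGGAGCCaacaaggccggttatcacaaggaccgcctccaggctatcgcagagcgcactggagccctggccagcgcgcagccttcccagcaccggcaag
Kcnj15, chr16:95257308-95257607, plus strand: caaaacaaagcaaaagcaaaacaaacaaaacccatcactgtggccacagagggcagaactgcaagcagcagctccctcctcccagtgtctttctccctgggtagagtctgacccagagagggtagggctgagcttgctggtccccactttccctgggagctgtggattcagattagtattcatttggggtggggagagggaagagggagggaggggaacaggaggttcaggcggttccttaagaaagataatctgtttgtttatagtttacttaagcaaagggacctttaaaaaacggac

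The Kcne3 gene had 2 start sites in the table, the first with 1 ACGTG match and the other with 3 matches to the NF-κB-type motif. Scn7a had 1 NF-κB-type match, Kcnj2 had 2 such matches and the CACGTG hexamer, and the Kcnj15 window held no match to any of the motifs searched. Over the 39 channel genes with a window, 29 (74.4%) held the NF-κB-type motif, which 53.5% of the 27025 genes of the table and 50.8% of its 32851 promoters also held. The ACGTG core was in 8 (20.5%), against 21.8% of all genes and 19.6% of all promoters. The RBPJ motif TTCCCAC was in 4 (10.3%), against 7.25% of all genes and 6.38% of all promoters. The interferon response element (GAAA, any 2 bases, GAAA) was in 2 (5.13%), against 3.99% of all genes and 3.44% of all promoters. Of the 21 genes called higher that had a window, 17 held the NF-κB-type motif and 6 the ACGTG core. Of the 5 called lower, 4 held the NF-κB-type motif and 0 the ACGTG core. These matches describe letters only.

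Of 10 sodium channel pore genes 5 were tested, Scn7a and Scn3a rose and Scn10a fell. Scn7a (chromosome 2, 66503769 to 66615258 on GRCm39) encodes an atypical sodium channel that responds to extracellular sodium rather than to voltage. It was at 10.9, 8.65 and 10.3 CPM in V1 to V3 and at 89.4, 86.0 and 74.4 CPM in T4 to T6. The groups were far apart and T4 was the highest library. This came to a log2 fold change of 3.07 (SE 0.0976, edgeR's adjusted p = 3.17e-13), 8.37-fold. Per kilobase of exon, its mean level went from 1.35 to 11.3 CPM per kb. Of the summed per-length level of the tested pore genes it made up 10.5% in the vehicle group and 57.7% in the β-SITO group. Scn7a is also a gene of peripheral glia. Of 8 neuron and glia markers 3 were tested and none was called, and Snap25 and Rbfox3 were at 0 counts in all libraries. The list summed to 29.9 to 34.7 CPM in the vehicle group and 27.8 to 33.4 CPM in the β-SITO group, most of it Tubb3. The glial marker S100b was at 0.568, 1.07 and 1.05 CPM against 1.75, 2.30 and 1.25 CPM (log2 fold change 0.97, edgeR's adjusted p = 0.0145). The part of these cells in the result was not tested.

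Scn3a, a sodium channel of neurons and of developing tissue, was at 3.35, 3.26 and 3.78 CPM in V1 to V3 and 11.5, 12.1 and 10.6 CPM in T4 to T6. Its groups did not overlap, and the log2 fold change was 1.71 (SE 0.131). Scn10a, the sodium channel best known from pain-sensing neurons, fell from 1.83, 1.57 and 1.80 CPM to 0.874, 0.618 and 0.885 CPM. Its log2 fold change was -1.11 (SE 0.270, edgeR's adjusted p = 0.00191), and it was -0.94, no longer called, without T5. Scn2a, a further neuronal pore gene, had a log2 fold change of 0.63 with overlapping groups.

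Of the 4 sodium channel beta subunit genes 3 were tested and 1 was called. Scn3b was called higher, at 0.632, 0.940 and 0.806 CPM against 2.83, 2.36 and 2.29 CPM (log2 fold change 1.64, SE 0.257). Scn4b, a beta subunit of the adult heart, had 1, 0 and 0 counts in each group and was not tested.

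**Figure D2:**
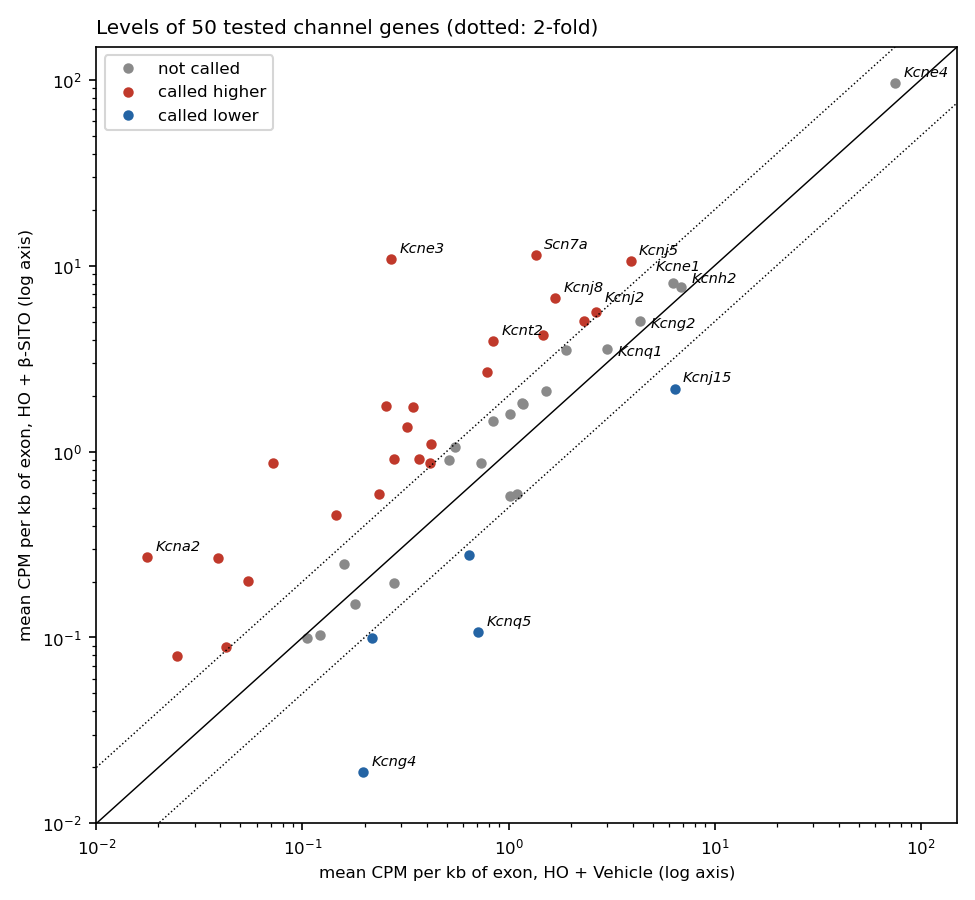
Each point is 1 of 50 tested channel genes, placed by its mean CPM per kb of exon in the HO + Vehicle group (x, log axis) and in the HO + β-SITO group (y, log axis), with the line of equality and dotted lines at 2-fold. Kcne4 holds the highest level in both groups, while Scn7a, Kcne3 and Kcnj5 lie above Kcnh2 in the β-SITO group.

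Of 13 accessory potassium channel genes 7 were tested, 5 were called higher and none lower, where 12.8% and 10.1% of all genes were. Kcne3 and Kcnip2 are among the 5 and met the count minimum through the β-SITO group only. Kcne3 (chromosome 7, 99825709 to 99834076 on GRCm39), a single-span subunit that keeps the KCNQ1 channel open, was at 0.505, 0.439 and 0.496 CPM in V1 to V3 and at 17.4, 20.3 and 20.1 CPM in T4 to T6. The vehicle libraries were close to the detection limit and the β-SITO libraries stood well clear of it. Their log2 fold change was 5.31 (SE 0.174, edgeR's adjusted p = 4.44e-13). Per kilobase of exon the level went from 0.270 to 10.8 CPM per kb, from rank 40 to rank 4 among the 56 tested genes.

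The other KCNE genes moved less. Kcne4, an inhibitory partner of KCNQ1 and Kv channels, was the most abundant member per length in both groups, at 74.9 and 95.7 CPM per kb. It was at 190.9, 205.1 and 201.1 CPM in V1 to V3 and 248.7, 261.1 and 252.9 CPM in T4 to T6, a small shift with no overlap (log2 fold change 0.35, SE 0.0564, edgeR's adjusted p = 5.11e-05) that was not called. Kcne1, the subunit that slows KCNQ1 to give the cardiac IKs current, was at 21.2, 20.6 and 18.7 CPM against 17.1, 29.1 and 31.6 CPM. T4 lay below the vehicle libraries while T5 and T6 lay above them. Its log2 fold change was 0.36 (edgeR's adjusted p = 0.0633), and without T4 it was 0.59 with an adjusted p of 3.13e-06.

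Kcnip2, the KChIP subunit needed for the transient outward current of the heart, was low, at 0.442, 0.0627 and 0.248 CPM in V1 to V3 and at 1.95, 4.22 and 2.91 CPM in T4 to T6. The groups were apart with a wide spread in each, and the log2 fold change was 3.55 (SE 0.446, edgeR's adjusted p = 4.36e-06), or 3.79 without T4. Kcnab1 and Kcnab2, the Kvβ subunits, also rose. Kcnab1 was at 6.001, 7.21 and 7.13 CPM against 27.0, 21.5 and 20.3 CPM (log2 fold change 1.76, SE 0.126). Kcnab2 was at 11.5, 14.4 and 12.8 CPM against 27.7, 27.6 and 28.6 CPM (log2 fold change 1.11, SE 0.0910). Kcnip3, a calcium-binding relative of Kcnip2, rose with a log2 fold change of 1.33.

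**Figure D3:**
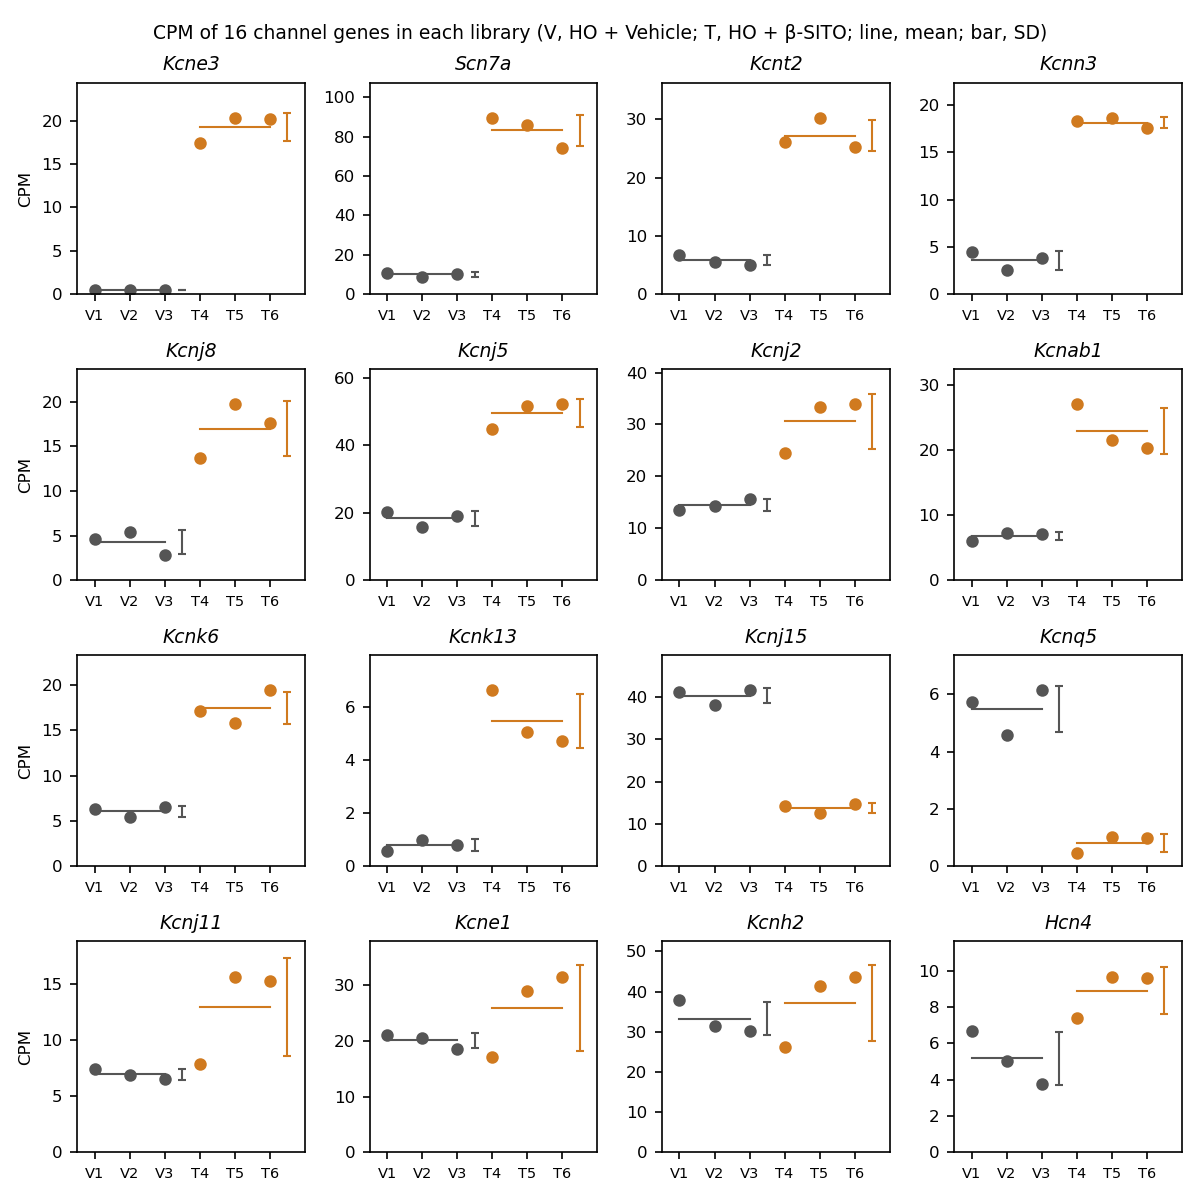
CPM after TMM scaling is plotted on linear axes for 16 channel genes in each of the 6 libraries, with the mean of each group as a line and the SD as a bar. Kcne3 and Scn7a separate the groups widely, whereas for Kcnj11, Kcne1 and Kcnh2 the T4 point lies apart from T5 and T6.

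The Kv pore genes held 4 called higher and 1 called lower among 8 tested of 17, where 12.8% and 10.1% of all genes were. Among the 4, Kcna2 and Kcna6 met the count minimum through the β-SITO group only. Kcna5, the pore of the ultrarapid delayed rectifier, was at 0.947, 0.878 and 0.930 CPM in V1 to V3 and 3.49, 3.93 and 4.27 CPM in T4 to T6 (log2 fold change 2.08, SE 0.219). Its groups were apart and T4 lay near T5 and T6.

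Kcna2 and Kcna6, better known from axons, rose from near the detection limit. Kcna2 was at 0.379, 0.251 and 0 CPM in V1 to V3 and at 2.88, 4.27 and 2.55 CPM in T4 to T6 (log2 fold change 3.90, SE 0.455). Kcna6 was at 0.189, 0.439 and 0.0620 CPM against 1.59, 1.63 and 1.56 CPM (log2 fold change 2.76, SE 0.418). Kcna4, a pore of the slow component of the transient outward current, fell from 3.79, 3.32 and 2.23 CPM to 0.976, 1.35 and 1.72 CPM. Its groups did not overlap, and the log2 fold change was -1.20 (SE 0.263, edgeR's adjusted p = 8.60e-04), or -1.01 and still called without T4.

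The pores of the fast transient outward current were scarce. Kcnd2 was at 0.316, 0.627 and 0.682 CPM in V1 to V3 and 0.463, 0.337 and 0.729 CPM in T4 to T6, with overlapping groups and an adjusted p of 0.881. Kcnd3 had 1, 0 and 2 counts in V1 to V3 and 8, 9 and 16 counts in T4 to T6, and it was not tested. Kcnd1, a further gene of that group, had a log2 fold change of 0.24 with overlapping groups.

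Silent modifier subunits, which do not form channels alone, gave 3 tested genes of 10. Kcng2 was between 11.9 and 17.3 CPM in all libraries, with overlapping groups, and did not pass the test, while without T4 its log2 fold change was 0.35 with an adjusted p of 0.00615. Kcng4 had 36 counts over the vehicle libraries and 4 over the β-SITO libraries, a pooled vehicle to β-SITO ratio of 10.6 (95% interval 3.80 to 41.0, counting error only), and it was called lower, also without T4. Kcnf1 had a log2 fold change of -0.23 with overlapping groups.

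Of the 5 KCNQ genes 3 were tested, and 1 was called higher and 1 lower. Kcnq1, the pore of the cardiac IKs current, was at 13.8, 12.3 and 10.9 CPM in V1 to V3 and 10.5, 17.3 and 15.8 CPM in T4 to T6. T4 was below the vehicle libraries and T5 and T6 above them. The log2 fold change was 0.23 (edgeR's adjusted p = 0.200), and without T4 it was 0.42 with an adjusted p of 0.00218.

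Kcnq5 (chromosome 1, 21468627 to 22032166 on GRCm39), a pore of the neuronal and smooth muscle M-type current, was at 5.75, 4.58 and 6.14 CPM in V1 to V3 and at 0.463, 1.01 and 0.989 CPM in T4 to T6. The groups did not overlap, and the log2 fold change was -2.74 (SE 0.253, edgeR's adjusted p = 1.35e-07), or -2.45 without T4.

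Kcnh2, the ERG channel of the cardiac IKr current, was the fourth most abundant member per length in the vehicle group. It was at 37.9, 31.4 and 30.3 CPM in V1 to V3 and 26.3, 41.3 and 43.7 CPM in T4 to T6. Here too T4 was the lowest of all libraries while T5 and T6 were the highest. Over all 6 libraries the log2 fold change was 0.16 (edgeR's adjusted p = 0.354), and without T4 it was 0.36 with an adjusted p of 0.00119. Of 8 genes of the EAG and ERG families 3 were tested, and Kcnh7 and Kcnh1 were called higher, at mean levels of 1.22 and 0.653 CPM with β-SITO. Kcnh1 and Kcnh7 overlap the genes Hhat and Gca, and use of strand in the counting is not given in the sources used here, so both are uncertain. Kcnab2, Kcng2, Kcnk2, Kcnk3, Kcnq1 and Kcnq5 also overlap other genes with counts, and the part of these overlaps was not tested. For Kcnk2 and Kcnq5 the other gene, the pseudogene Pdcd5-ps or Gm7658, lies on the same strand. Gm7658 averaged 27 counts in the vehicle group and 37 in the β-SITO group, against 51.5 for Kcnq5 over all libraries. Kcnh1 had a log2 fold change of 1.05 (edgeR's adjusted p = 0.0376), and it was not called without V1 (0.82), V2 (1.05), T4 (1.03) or T6 (0.97).

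Of the 15 inward rectifier genes 10 were tested, 6 rose, Kcnj15 fell, and the median log2 fold change was 1.06. Kcnj10, among the 6, met the count minimum through the β-SITO group only. Kcnj2, the main pore of the IK1 current that holds the resting potential of cardiomyocytes, was at 13.5, 14.3 and 15.6 CPM in V1 to V3 and 24.5, 33.3 and 33.9 CPM in T4 to T6 (log2 fold change 1.08, SE 0.118, edgeR's adjusted p = 9.45e-07). Kcnj12, a second IK1 pore, was at 3.47, 3.51 and 2.60 CPM against 3.19, 5.85 and 6.09 CPM. For Kcnj2 the groups were apart, whereas for Kcnj12 T4 lay among the vehicle libraries. Kcnj12 had a log2 fold change of 0.65 (edgeR's adjusted p = 0.0216) and was not called, and without T4 it was 0.90. Kcnj4, another rectifier of the same kind, was at a mean of 1.87 CPM with β-SITO and was called higher at 1.05, but not without V2 (0.99), T5 (0.97) or T6 (0.88), and it was 1.30 without T4.

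Kcnj3 and Kcnj5 form the acetylcholine-activated channel of atrial and nodal cells. Kcnj5 was at 20.2, 15.9 and 18.9 CPM in V1 to V3 and at 44.9, 51.7 and 52.2 CPM in T4 to T6 (log2 fold change 1.44, SE 0.0939, edgeR's adjusted p = 2.24e-09). Kcnj3 was at 2.78, 1.82 and 1.98 CPM against 3.44, 7.31 and 6.45 CPM (log2 fold change 1.38, SE 0.265, edgeR's adjusted p = 2.91e-04). Both rose without overlap, Kcnj3 with T4 well under T5 and T6, and its log2 fold change was 1.65 without T4. Per length Kcnj5 was the most abundant inward rectifier of the β-SITO group at 10.6 CPM per kb.

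Kcnj8 and Kcnj11 are the pores of ATP-sensitive potassium channels, which pair with the sulfonylurea receptors encoded by Abcc8 and Abcc9. Kcnj8, the vascular pore, was at 4.61, 5.39 and 2.85 CPM in V1 to V3 and 13.7, 19.7 and 17.6 CPM in T4 to T6 (log2 fold change 1.99, SE 0.183, edgeR's adjusted p = 1.32e-07). Kcnj11, the pore of cardiomyocytes, was at 7.45, 6.90 and 6.51 CPM against 7.91, 15.7 and 15.3 CPM. Kcnj8 separated the groups widely, while T4 exceeded the vehicle libraries only slightly for Kcnj11. The log2 fold change of Kcnj11 was 0.89 (edgeR's adjusted p = 0.00124), not called, and without T4 it was 1.16 and called. Abcc9 and Abcc8 were both called higher, with log2 fold changes of 1.46 and 1.53. Kcnj8 and Abcc9 are marker genes of pericytes. Of 8 smooth muscle and pericyte markers 4 were called higher, namely Myh11, Cnn1, Rgs5 and Notch3. The list summed to 1157 to 1256 CPM in the vehicle group and 2052 to 2316 CPM in the β-SITO group. Acta2 and Pdgfrb held most of that sum, with log2 fold changes of 0.99 and 0.62. Both passed the adjusted p under 2-fold and so were not called, though Acta2 was called without T4 (1.04) and without T5 (1.02). The part of these cells in the result was not tested.

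Kcnj15 (chromosome 16, 95058417 to 95101119 on GRCm39), an inward rectifier known from kidney and other epithelia, was the exception. It was at 41.2, 38.2 and 41.5 CPM in V1 to V3 and at 14.1, 12.5 and 14.6 CPM in T4 to T6. The vehicle libraries were all higher, with little spread in either group, and the log2 fold change was -1.55 (SE 0.0830, edgeR's adjusted p = 1.96e-10). It made up 33.9% of the summed per-length level of the tested inward rectifiers in the vehicle group and 6.65% in the β-SITO group, while Kcnj5 went from 20.7% to 32.3% and Kcnj8 from 8.92% to 20.4%.

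Of 14 K2P genes, whose channels carry background potassium current, 5 were tested and 3 were called higher. Kcnk13 was at 0.568, 1.003 and 0.806 CPM in V1 to V3 and 6.63, 5.06 and 4.74 CPM in T4 to T6 (log2 fold change 2.78, SE 0.245, edgeR's adjusted p = 7.90e-08). Kcnk6 was at 6.38, 5.39 and 6.51 CPM against 17.2, 15.9 and 19.4 CPM (log2 fold change 1.52, SE 0.117). Both separated the groups, and T4 was no lower than the range of T5 and T6. Kcnk5, an acid-sensitive K2P gene, had a log2 fold change of 1.31. Kcnk13 and Kcnk6 are also expressed by macrophages and their relatives. Of 11 macrophage markers 7 were called higher and 1, Cd14, lower. The 3 not called were Adgre1, Ptprc and Itgam, with log2 fold changes of -0.06, -0.03 and 0.47. The list summed to 1217 to 1334 CPM in the vehicle group and 2760 to 3381 CPM in the β-SITO group. Lyz2 was the largest part of that sum. The part of macrophages in the result was not tested.

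Kcnk3, an acid-sensitive K2P channel of atrial cells, was at 5.24, 4.51 and 4.28 CPM in V1 to V3 and 4.42, 8.04 and 9.06 CPM in T4 to T6. T4 again lay among the vehicle libraries. Over all libraries the log2 fold change of Kcnk3 was 0.61 (edgeR's adjusted p = 0.0222), not called, and without T4 it was 0.87. Kcnk2, a stretch-activated K2P channel, had a log2 fold change of -0.82 and was not called.

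Of the 12 calcium- and sodium-activated potassium channel genes 6 were tested and 2 were called, both higher. Kcnn3, a small-conductance calcium-activated channel, was at 4.48, 2.51 and 3.78 CPM in V1 to V3 and 18.3, 18.6 and 17.5 CPM in T4 to T6 (log2 fold change 2.34, SE 0.147, edgeR's adjusted p = 1.36e-09). Kcnt2, a sodium-activated channel, was at 6.76, 5.58 and 5.02 CPM against 26.1, 30.2 and 25.2 CPM (log2 fold change 2.23, SE 0.117, edgeR's adjusted p = 1.52e-10). T4 lay with T5 and T6 in both. Kcnn1 and Kcnn4 had log2 fold changes of 0.94 and 0.81, with no overlap and under 2-fold. Kcnn2, the small-conductance gene most studied in the atrium, was at 1.58, 1.13 and 1.30 CPM against 0.874, 1.52 and 0.989 CPM and did not pass the test. Kcnmb1, the beta subunit of the large-conductance channel of smooth muscle, had -0.89 with T4 the lowest. It was at -0.59 without T4, and at -1.03 and -1.08, then called lower, without T5 and without T6. Its pore Kcnma1 had 6, 4 and 3 counts against 13, 7 and 17 and was not tested.

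Kcnn3 is also a gene of endothelial cells, and endothelial markers were measured beside it. Of 9 such markers 8 were called higher and 1 lower, and the list summed to 681 to 800.0 CPM in the vehicle group and 935 to 981 CPM in the β-SITO group. Flt1, the marker that fell, held most of the vehicle sum, and without it the other 8 summed to 204 to 234 CPM against 837 to 867 CPM, a sum added after the values were seen. The part of endothelial cells in the result was not tested.

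None of the 3 tested pacemaker genes of 4 was called. Hcn4, the main pacemaker channel of the sinoatrial node, was at 6.70, 5.02 and 3.78 CPM in V1 to V3 and 7.40, 9.67 and 9.58 CPM in T4 to T6. Every β-SITO value lay above every vehicle value. Hcn4 had a log2 fold change of 0.78 (edgeR's adjusted p = 0.00128), and it was 1.03, then called, without V1. Hcn2, the ventricular form, was at 4.99, 4.95 and 4.59 CPM against 5.86, 7.36 and 7.18 CPM (log2 fold change 0.49, edgeR's adjusted p = 0.00735). Of 7 conduction system markers 6 were tested, with a median log2 fold change of 0.33. Tbx3 was called lower, at -1.01, but not without T4 (-0.88) or without T6 (-0.93). Gja5, Cntn2 and Shox2 passed the adjusted p under 2-fold, at 0.91, 0.78 and 0.54.

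Low values in T4 were found mostly in the channel genes best known from cardiac electrophysiology. Of a list of such genes 21 were tested, 7 were called higher, 1 lower and 13 were not called, and in 10 of them T4 was at least 1.5-fold below the mean of T5 and T6. Among the other 35 channel genes 19 were called higher, 4 lower, and 5 were that low in T4. Over all 56 channel genes these made 15 (26.8%), against 5.19% of all genes tested. Among the 15 were Kcnip2, Kcne1, Kcnmb1, Kcnh2, Kcnj3, Kcnj4, Kcnj11, Kcnj12, Kcnk3, Kcnq1, Kcnq5, Kcng4 and Kcna4, and the 1.5-fold limit was chosen after the values were seen. Of these, 3 were called higher, 3 lower and 9 were not called. None of the 9 fibroblast, 9 endothelial or 11 macrophage markers was that low in T4, and 3 of the 8 smooth muscle and pericyte markers were. In these bulk libraries fewer cardiomyocytes and less RNA per cardiomyocyte cannot be told apart.

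**Figure D4:**
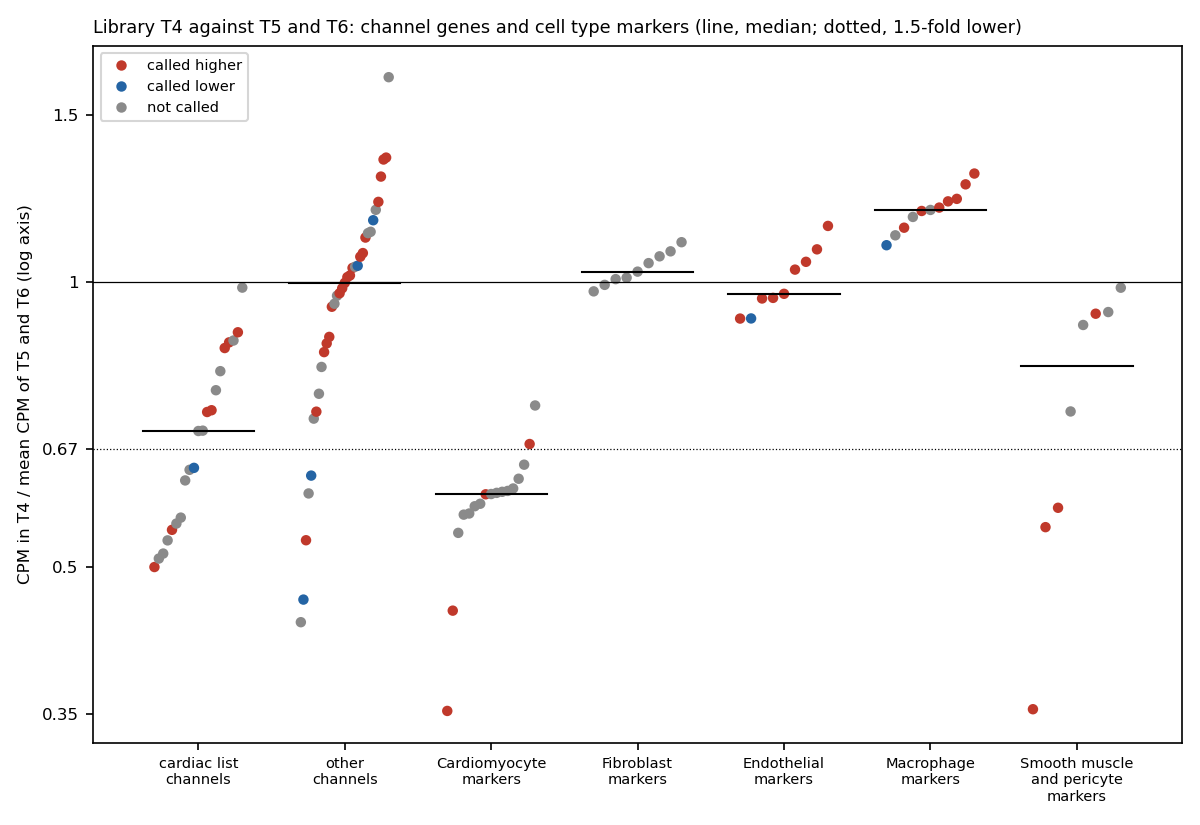
The CPM of each gene in T4 is divided by its mean in T5 and T6 (log axis, line at the median of each group of genes, dotted line at 1.5-fold lower), for channel genes of the cardiac list, the other channel genes and markers of 5 cell types. The cardiac channel genes spread between the cardiomyocyte markers, of which 15 of 17 lie below the dotted line, and the fibroblast markers, of which none does.

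The 15 genes were also set against the summed cardiomyocyte markers of the same library, a sum whose own T4 ratio was 0.589. Their median T4 level was then 0.929 times the mean of T5 and T6, where in CPM this ratio ran from 0.438 to 0.637. The 15 were picked for a low T4, so a ratio nearer 1 was fixed in advance and no conclusion is drawn from it. For Kcna5 and Kcnj5, cardiac list genes not picked that way, the scaled T4 ratio was 1.45 and 1.47. Per 1000 CPM of those markers, Kcnh2 was at 4.39, 4.18 and 3.997 in V1 to V3 and at 4.01, 3.74 and 3.91 in T4 to T6. T4 then lay close to T5 and T6 and the groups overlapped, as they did for Kcnq1 and Kcne1. These were not typical of the 21 tested genes of the cardiac list. So scaled, all β-SITO values lay above all vehicle values for 11 and below them for 5, and 5 overlapped. The share over all genes was not worked out on that scale, so no conclusion is drawn from these counts. Such a ratio shows unequal change only, since the markers themselves did not move together. Myh7, Myl4, Myl7 and Nppa were called higher, and the 17 log2 fold changes ran from -0.47 (Tnnt2) to 2.39 (Myl7).

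Proteins that bind or anchor these channels were followed with a separate list. Of 26 partner genes 18 were tested, 7 were called higher, 2 lower and 9 were not called, where 12.8% and 10.1% of all genes were called higher and lower. In 6 of the 18, among them Abcc8, Fgf11, Fgf12 and Fgf13, T4 was at least 1.5-fold below the mean of T5 and T6. Without T4 the log2 fold changes of these 4 were 1.79, 2.02, 2.78 and 0.79. Of the 4 genes of intracellular fibroblast growth factors, which bind sodium channels, 3 were called, with log2 fold changes of 1.84 for Fgf11, 2.58 for Fgf12 and 2.38 for Fgf14, the last from 8, 7 and 5 counts in V1 to V3. Fgf13, the most abundant of them by CPM, was at 10.2, 7.96 and 8.80 CPM against 9.92, 14.2 and 16.9 CPM, with a log2 fold change of 0.60, and was not called. Tmem38a, a potassium-permeable channel of the sarcoplasmic reticulum, had 1.10, and Irag2, whose protein binds HCN4, had 1.81. Those lower were Lrrc55, an auxiliary subunit of the large-conductance potassium channel, at -2.46, and Ank2, which anchors pumps and exchangers at the membrane, at -1.01. Ank2 lay close to the threshold and was not called without T4 (-0.991) or without T5 (-0.984).

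The sodium-potassium pump sets the gradients that all of these channels use. Of 13 pump genes 10 were tested, 4 were called higher and none lower. Among them Atp1b2, a beta subunit, and Fxyd2, a regulator of the pump, were higher, with log2 fold changes of 1.93 and 2.23, and Atp1b3, at -0.85, was under 2-fold.

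Of the 112 members 56 were not tested. Among them 14 had 0 counts in all 6 libraries, such as the neuronal or epithelial genes Kcnj6, Kcnk9 and Scn9a, where 3 counts would have come to at most 0.189 CPM. A further 23 had between 1 and 10 counts over all libraries and 19 had more than 10. Of the genes with 0 counts in every vehicle library 8 had counts with β-SITO, and 3 showed the reverse. Kcnb2 had the most of the 8, with 4, 2 and 6 counts, and the others had no more than 3 counts in total. The share over all genes was not worked out, so no weight is placed on the 8 and the 3. Kcns1 had 0, 1 and 0 counts in V1 to V3 and 8, 11 and 12 in T4 to T6, while Kcna7, a Kv gene of muscle, had 9, 7 and 12 against 9, 12 and 6. No fold change is given for these.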

How the data were processed

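Per the labels, total RNA of 6 libraries was sequenced, and the submitters' processing notes name FastQC, HISAT2, featureCounts and the GRCm39 build, with no versions. The study's methods name an ABclonal library kit and the sample records an Illumina one, and strand settings are not given in the sources used here. The authors deposited 1 table of raw counts per gene, with no normalization. Totals per library ran from 16694734 to 18460522.

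From these counts, filterByExpr left 14799 genes, which were scaled by TMM and compared with edgeR 4.0.16 (R 4.3.3) by the quasi-likelihood test with the group as its only term and Benjamini-Hochberg adjustment over all tested genes. The biological coefficient of variation was 6.52%. Calls used the study's thresholds, 0.05 for the adjusted p and 2-fold for the change. An exact permutation test of 3 against 3 libraries cannot go below p = 0.1, so single values were not tested that way. Exon lengths came from GENCODE vM21, matched by gene identifier for all 56 tested channel genes, and promoters from RefSeq. The steps were tested on simulated data.

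Named genes were all called members, the 5 highest per length in each group and a list from cardiac electrophysiology. Some genes chosen by this rule are left out of the text and plots and not reported here. Others stand at the ends of ranges or were picked after their values were seen. Members and lists were chosen with earlier results of these data known. Alternatives were DESeq2 1.42.0, limma-voom (limma 3.58.1), glmTreat, other scalings and filters, and leaving out each library.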

Additional observations from a re-analysis of the deposited data

How the results depend on the processing

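Counts of channel genes called higher and lower were 26 and 5 in edgeR's quasi-likelihood test. They were 25 and 5 with DESeq2, 25 and 5 with limma-voom, and 17 and 3 with glmTreat against 2-fold, whose test asks for a change beyond the threshold itself. With no fold threshold they were 36 and 9, and with a mean of at least 50 counts, an alternative added after the data were seen, 15 and 2. Without a filter 98 channel genes were tested, with 32 and 7 called. Scaling by upper quartile or by library size alone raised the median of all genes by 0.14 on the log2 scale and gave 28 and 4. Leaving out each library in turn gave 25 to 31 higher and 5 to 6 lower.

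DESeq2 and the fit without a filter lost the call of Kcnh1, limma-voom that of Kcnj4, and scaling by upper quartile or library size that of Scn10a, while these scalings gained Kcnj11 and Kcnn1. With glmTreat, 11 of the 31 calls were lost, among them Kcnj2, Kcnj3, Kcnj4, Kcna4, Kcnab2, Kcnip3, Kcnk5, Kcnh1, Kcnh7 and Scn10a. Among the named genes, the sign changed for Kcnd2, which was not called. It was at 0.062 with upper quartile and 0.067 with library size, and at 0.038, 0.14 and 0.16 without V2, V3 and T5 (range -0.41 to 0.16). The cause was not tested. No paired analysis was possible because the replicate numbers of the groups are not shared.

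Depth limits the genes near the floor. A count of 3 came to 0.154 to 0.189 CPM, and the vehicle values of Kcna2, Kcna6, Kcnip2 and Kcnh1 lay near it, so their fold changes depend on few reads. Intervals and floors cover counting error only.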
